A study of Homo sapiens with 6 samples.

Results

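The RNAs described here are the 100 most abundant small nucleolar RNAs (snoRNAs) and small Cajal body RNAs (scaRNAs) among transcripts precipitated with J2, an antibody against double-stranded RNA, from the human line OCI-AML2, which grows from acute myeloid leukaemia. They were selected on their mean FPKM over the 6 libraries, as the 100 highest among 850 identifiers whose symbol begins with SNORA, SNORD or SCARNA followed by a digit, out of 60675 identifiers in all. By symbol, 50 were box H/ACA snoRNAs (SNORA), 33 were box C/D snoRNAs (SNORD) and 17 were scaRNAs (SCARNA). They stand for 92 different symbols at 97 distinct positions, because a few symbols and positions carry more than 1 identifier. Of the 6 libraries, 3 came from cells transduced with a short hairpin RNA (shRNA) against SUPV3L1, also called SUV3, and the other 3 from cells with an shRNA against PNPT1, also called PNPase, and the series text calls the 3 of each group biological replicates. Both groups were J2 precipitates of the same line, with no further agent or time given in the labels, so each comparison sets SUPV3L1 knockdown against PNPT1 knockdown. No library of unmodified cells or of RNA before precipitation was analysed here, and a change in the amount of an RNA cannot be told apart from a change in how much of it was precipitated.

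SnoRNAs guide the chemical modification of other RNAs in the nucleolus, where they work inside protein particles. Box C/D snoRNAs guide ribose methylation with the enzyme fibrillarin (FBL), box H/ACA snoRNAs guide pseudouridine formation with dyskerin (DKC1), and scaRNAs do either or both for the small nuclear RNAs of the spliceosome in Cajal bodies. A few, among them U3 (SNORD3), U8 (SNORD118), U13 (SNORD13), U14 (SNORD14), U22 (SNORD22) and U17 (SNORA73), act in the cleavage or maturation of the ribosomal RNA precursor. Most human snoRNAs are cut out of introns of a host gene, while U3, U8 and U13 have promoters of their own. SUPV3L1 is a mitochondrial RNA helicase and PNPT1 the exoribonuclease that works with it.

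The sequences below are those the results turn on, taken from GENCODE 29 on GRCh38 and written as DNA from 5′ to 3′. In the box C/D and scaRNA sequences capitals mark box C (TGATGA) and box D (CTGA). In the H/ACA sequences capitals mark the ACA box near the 3′ end. SNORA73A (chr1:28507366-28507571, plus strand) and SNORA73B (chr1:28508559-28508762, plus strand) are the U17 copies, shown together because they were 93.2% identical and yet differed completely in counts. SNORA63 (chr3:186787300-186787431, plus strand) was the third H/ACA member by level. SNORD3A (chr17:19188016-19188232, plus strand) represents the U3 copies, and SNORD118 (chr17:8173454-8173587, minus strand) is U8. SCARNA12 (chr12:6967337-6967606, minus strand) was among the highest scaRNAs and had FPKM but 0 counts. SNORA23 (chr11:9428773-9428954, plus strand) was far higher in 1 library than in the other 5. SNORD116-18 (chr15:25085385-25085476, plus strand) and the SNORA72 copy inside NUCKS1 (chr1:205731221-205731352, minus strand) separated the groups without overlap. The last of these holds no ACA in its final 8 bases and so carries no capitals.

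SNORA73A: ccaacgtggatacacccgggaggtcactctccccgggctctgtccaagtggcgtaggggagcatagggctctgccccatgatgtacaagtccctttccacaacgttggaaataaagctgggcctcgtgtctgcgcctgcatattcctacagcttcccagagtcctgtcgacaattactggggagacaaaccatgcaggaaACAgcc
SNORA73B: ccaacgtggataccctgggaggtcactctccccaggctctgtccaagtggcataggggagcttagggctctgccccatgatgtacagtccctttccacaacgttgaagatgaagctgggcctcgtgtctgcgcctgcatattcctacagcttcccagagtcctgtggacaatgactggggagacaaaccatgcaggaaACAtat
SNORA63: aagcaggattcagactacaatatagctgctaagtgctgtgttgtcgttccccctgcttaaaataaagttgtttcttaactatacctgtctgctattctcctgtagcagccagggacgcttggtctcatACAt
SNORA23: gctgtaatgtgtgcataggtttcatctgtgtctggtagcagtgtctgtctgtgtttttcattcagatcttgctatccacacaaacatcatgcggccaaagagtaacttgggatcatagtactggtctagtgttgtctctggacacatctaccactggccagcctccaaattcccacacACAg
SNORA72 (NUCKS1 copy): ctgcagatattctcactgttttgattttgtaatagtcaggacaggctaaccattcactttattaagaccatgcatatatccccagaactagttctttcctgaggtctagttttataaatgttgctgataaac
SNORD3A: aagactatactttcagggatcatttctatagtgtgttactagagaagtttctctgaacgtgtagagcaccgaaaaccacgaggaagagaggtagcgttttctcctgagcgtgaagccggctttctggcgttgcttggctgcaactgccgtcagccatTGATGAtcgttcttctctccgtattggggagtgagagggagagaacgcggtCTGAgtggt
SNORD118: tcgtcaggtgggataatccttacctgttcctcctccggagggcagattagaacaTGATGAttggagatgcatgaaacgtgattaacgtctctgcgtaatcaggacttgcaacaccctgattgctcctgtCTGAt
SNORD116-18: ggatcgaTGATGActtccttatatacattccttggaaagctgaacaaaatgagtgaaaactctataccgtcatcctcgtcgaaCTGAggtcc
SCARNA12: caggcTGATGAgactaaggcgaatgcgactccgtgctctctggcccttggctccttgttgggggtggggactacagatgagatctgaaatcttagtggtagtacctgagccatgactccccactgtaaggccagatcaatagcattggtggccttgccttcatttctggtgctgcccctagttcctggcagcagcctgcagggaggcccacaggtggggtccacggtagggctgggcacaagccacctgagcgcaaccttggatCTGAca

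Both targeted genes were measured first, as CPM (counts scaled by TMM library size). SUPV3L1 averaged 11.3 ± 1.61 CPM with SUPV3L1 knockdown, against 18.5 ± 7.16 CPM with PNPT1 knockdown (SD, n = 3 each), with overlapping groups. PNPT1 averaged 28.5 ± 7.49 CPM with SUPV3L1 knockdown, against 14.6 ± 6.06 CPM with PNPT1 knockdown (SD, n = 3 each), without overlap. Neither difference passed in edgeR with Benjamini-Hochberg adjustment over all genes (log2 fold change, SUPV3L1 minus PNPT1 knockdown, -0.70 ± 0.39 for SUPV3L1 and 0.97 ± 0.41 for PNPT1, SE; adjusted p = 0.898 for both). Counts assigned to genes ranged from 5852090 to 11361371 per library. The 8 myeloid markers examined averaged 1 CPM or more, while none of 14 markers of T, B, erythroid, epithelial or fibroblast cells did, and 8 of those 14 were at 0 in every library. One library stood apart. PNPT1 knockdown replicate 3 had the fewest counts, the fewest genes with a count (16620, against 20765 to 22393 in the other libraries), the highest share of alignments that were not unique (80.1%, against 65.7% to 71.6%) and the largest summed FPKM (2966720, against 1470700 to 1915470). Results are therefore given with and without it.

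A handful of RNAs made up most of the signal. FPKM are fragments scaled to transcript length and library size, and for RNAs this short the level depends on how length and repeated positions were handled, so the order of levels is that of the deposited FPKM. The 5 highest of the 100 held 61.2% of their summed mean FPKM, the highest 10 held 74.3% and the highest 50 held 97.1%. In mean FPKM, 5 exceeded 1000, 28 reached 100 and 72 reached 10. By class the median of the mean FPKM was 16.4 for H/ACA, 19.7 for C/D and 126 for scaRNAs, while the highest values were 2899, 2522 and 872 in the same order of classes. These levels chose the set and are given as a description. At its lower edge SNORA75 (5.62), the NUCKS1 copy of SNORA72 (5.48) and SNORA33 (5.23) were inside, and SNORA50A (5.22), SNORA67 (5.18) and SNORD30 (5.12) were the first outside.

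The H/ACA class was led by U17. SNORA73A lies by position in an intron of RCC1 and also overlaps an exon of SNHG3 on the same strand. It was at 1533, 3513 and 5040 FPKM in the SUPV3L1 knockdown libraries and at 1874, 1568 and 3864 FPKM in the PNPT1 knockdown libraries. Its neighbour SNORA73B was at 1248, 2879 and 3772 FPKM in the SUPV3L1 knockdown libraries and at 1262, 1198 and 2650 FPKM in the PNPT1 knockdown libraries. Both copies were high in the same 3 libraries, replicates 2 and 3 of SUPV3L1 knockdown and replicate 3 of PNPT1 knockdown, so the groups overlapped. The log2 fold change of SNORA73B, SUPV3L1 minus PNPT1 knockdown, was 0.28 ± 0.63 in counts and 0.59 ± 0.54 in FPKM (SE, n = 3 per group), and without PNPT1 knockdown replicate 3 it was 1.26 in counts and 0.96 in FPKM. None of these passed adjustment in edgeR or limma (adjusted p = 0.949 and 0.969 with all libraries, 0.999 and 0.973 without that library).

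SNORA63, also known as E3 and lying within EIF4A2, behaved otherwise. It was at 1820, 1263 and 985 FPKM in the SUPV3L1 knockdown libraries and at 1749, 1405 and 231 FPKM in the PNPT1 knockdown libraries. Its lowest value was in PNPT1 knockdown replicate 3, and the other 5 values of the groups were intermixed. SNORA48 averaged 366 ± 152 FPKM with SUPV3L1 knockdown, against 316 ± 108 FPKM with PNPT1 knockdown (SD, n = 3 each). SNORA71A, from an intron of the non-coding host SNHG17, averaged 275 ± 85.8 FPKM with SUPV3L1 knockdown, against 335 ± 211 FPKM with PNPT1 knockdown (SD, n = 3 each). Both had overlapping groups.

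U3 led the box C/D class through 5 identifiers. Their sequences were 98.2% to 100% identical, so the division of reads among them is uncertain and their sum is the firmer value. Summed over the 5, U3 was at 8238, 5264 and 3940 FPKM in the SUPV3L1 knockdown libraries and at 7605, 4149 and 6174 FPKM in the PNPT1 knockdown libraries, with overlapping groups. SNORD3B-1 and SNORD3A held most of it, at means of 2499 ± 943 and 2421 ± 938 FPKM with SUPV3L1 knockdown, against 2544 ± 756 and 2542 ± 753 FPKM with PNPT1 knockdown (SD, n = 3 each). SNORD3B-2 averaged 448 ± 159 FPKM with SUPV3L1 knockdown, against 401 ± 137 FPKM with PNPT1 knockdown (SD, n = 3 each). SNORD3D averaged 326 ± 114 FPKM with SUPV3L1 knockdown, against 352 ± 72.5 FPKM with PNPT1 knockdown (SD, n = 3 each).

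The other RNAs of precursor cleavage varied more. U13 (SNORD13) was at 565, 375 and 450 FPKM in the SUPV3L1 knockdown libraries and at 426, 275 and 612 FPKM in the PNPT1 knockdown libraries. U8 (SNORD118), needed for the maturation of the large subunit RNAs, was at 161, 44.4 and 40.6 FPKM in the SUPV3L1 knockdown libraries and at 104, 33.7 and 303 FPKM in the PNPT1 knockdown libraries. U22 (SNORD22) was at 5.06, 5.34 and 55.5 FPKM in the SUPV3L1 knockdown libraries and at 2.61, 36.7 and 10.3 FPKM in the PNPT1 knockdown libraries. In each of these 3 RNAs the groups overlapped, and no single library was highest in all of them. Of the U14 genes only SNORD14E was among the 100. It lies in an intron of HSPA8 and was at 6.29, 5.18 and 5.17 FPKM in the SUPV3L1 knockdown libraries and at 0.297, 4.50 and 163 FPKM in the PNPT1 knockdown libraries. Its lowest and its highest value were both in PNPT1 knockdown.

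Among scaRNAs, SCARNA10 guides both kinds of modification in the U5 small nuclear RNA. Its higher identifier was at 941, 736 and 963 FPKM in the SUPV3L1 knockdown libraries and at 1105, 1046 and 444 FPKM in the PNPT1 knockdown libraries. SCARNA12, within PHB2, averaged 352 ± 52.3 FPKM with SUPV3L1 knockdown, against 313 ± 60.2 FPKM with PNPT1 knockdown (SD, n = 3 each). SCARNA21, from an intron of CHD3, averaged 188 ± 25.4 FPKM with SUPV3L1 knockdown, against 275 ± 110 FPKM with PNPT1 knockdown (SD, n = 3 each). SCARNA7, from an intron of KPNA4, was at 142, 166 and 128 FPKM in the SUPV3L1 knockdown libraries and at 184, 139 and 523 FPKM in the PNPT1 knockdown libraries. Groups overlapped for all 4, with PNPT1 knockdown replicate 3 the lowest for SCARNA10 and the highest for SCARNA21 and SCARNA7.

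**Figure D1:**
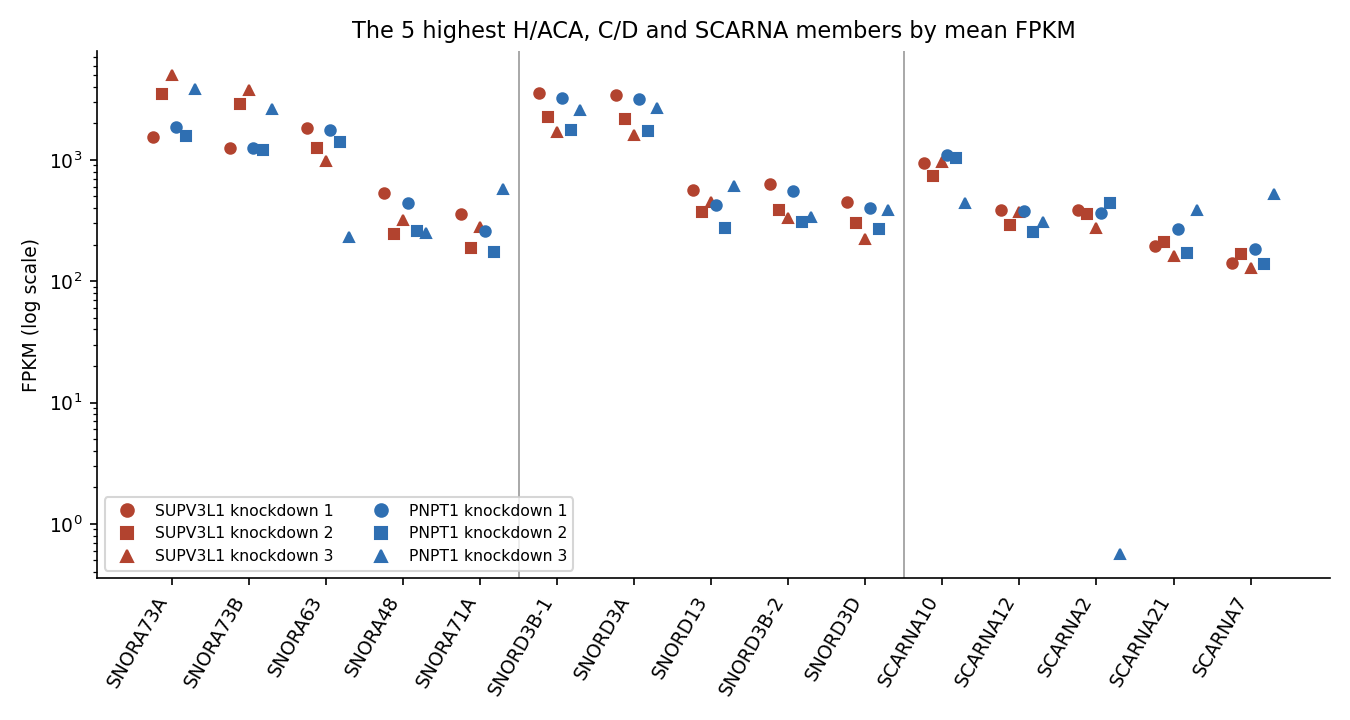
FPKM of the 5 highest RNAs by mean FPKM in each class (x axis, classes divided by grey lines) in each library (y axis, log scale); red points are SUPV3L1 knockdown, blue points PNPT1 knockdown, and marker shapes are replicates 1, 2 and 3. In these 15 the groups overlap, and the lone point at 0.560 FPKM is 1 identifier of SCARNA2 in PNPT1 knockdown replicate 3.

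At 3 positions the annotation carried 2 identifiers for 1 RNA, and FPKM moved between them. SCARNA2 had 383, 361 and 277 FPKM in the SUPV3L1 knockdown libraries and 365, 444 and 0.560 FPKM in the PNPT1 knockdown libraries under ENSG00000278249. Under ENSG00000270066 it had 32.7, 29.4 and 19.7 FPKM in the SUPV3L1 knockdown libraries and 19.99, 30.1 and 744 FPKM in the PNPT1 knockdown libraries. The value near 0 and the value far above the rest were both in PNPT1 knockdown replicate 3, and the sum was 416, 390 and 297 FPKM in the SUPV3L1 knockdown libraries and 385, 474 and 745 FPKM in the PNPT1 knockdown libraries. The log2 fold change of 2.83 for ENSG00000278249 in FPKM became -0.26 without PNPT1 knockdown replicate 3 and passed no test. SCARNA4 also moved between its 2 identifiers, in libraries of both groups, and its sum was 19.9, 3.79 and 11.4 FPKM in the SUPV3L1 knockdown libraries and 7.95, 15.1 and 55.7 FPKM in the PNPT1 knockdown libraries. For SCARNA10 both identifiers kept their order, and the sum was 1158, 896 and 1201 FPKM in the SUPV3L1 knockdown libraries and 1334, 1293 and 605 FPKM in the PNPT1 knockdown libraries.

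Many of these RNAs had FPKM but few or no counts. Of the 100, 30 had fewer than 10 counts in the 6 libraries together, and 24 of them had none. The 5 highest of them were SNORA73A, SNORA63, SCARNA10 (ENSG00000239002), SNORA48 and SNORD3D. SNORA73A had 0 counts in every library, while SNORA73B had 5119, 10052 and 12545 counts in the SUPV3L1 knockdown libraries and 3815, 4295 and 5853 counts in the PNPT1 knockdown libraries. In GENCODE 29, 20 of the 30 overlapped an exon of a gene not typed as a small RNA on the same strand, 7 overlapped only another small RNA and 3 neither. For SCARNA10 (ENSG00000239002) and SCARNA2 (ENSG00000278249), both among the 20, that gene was the other identifier of the same RNA. Among the 7, SCARNA10 (ENSG00000276232), SCARNA2 (ENSG00000270066) and both SCARNA4 identifiers likewise overlapped only the other identifier of the same RNA. Of the 70 with 10 or more counts, 4 overlapped such an exon, 1 only another small RNA and 65 neither. SNORA73A overlaps an exon of SNHG3, SNORA63 one of EIF4A2, SNORA48 and SNORD10 one of EIF4A1, SCARNA12 one of PHB2, SNORD118 one of TMEM107 and SNORA52 one of RPLP2. Among the 70, FPKM and counts per kilobase ranked the RNAs alike within a library (Spearman's rho 0.734 to 0.820 across the 70, which share the library and are not independent). U3 departed from that ranking, with 1065, 485 and 403 counts for SNORD3A in the SUPV3L1 knockdown libraries and 677, 498 and 494 in the PNPT1 knockdown libraries although its FPKM was above that of SNORA73B in 4 of the 6 libraries. Whether the counting of overlapping or repeated positions set these counts was not tested.

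**Figure D2:**
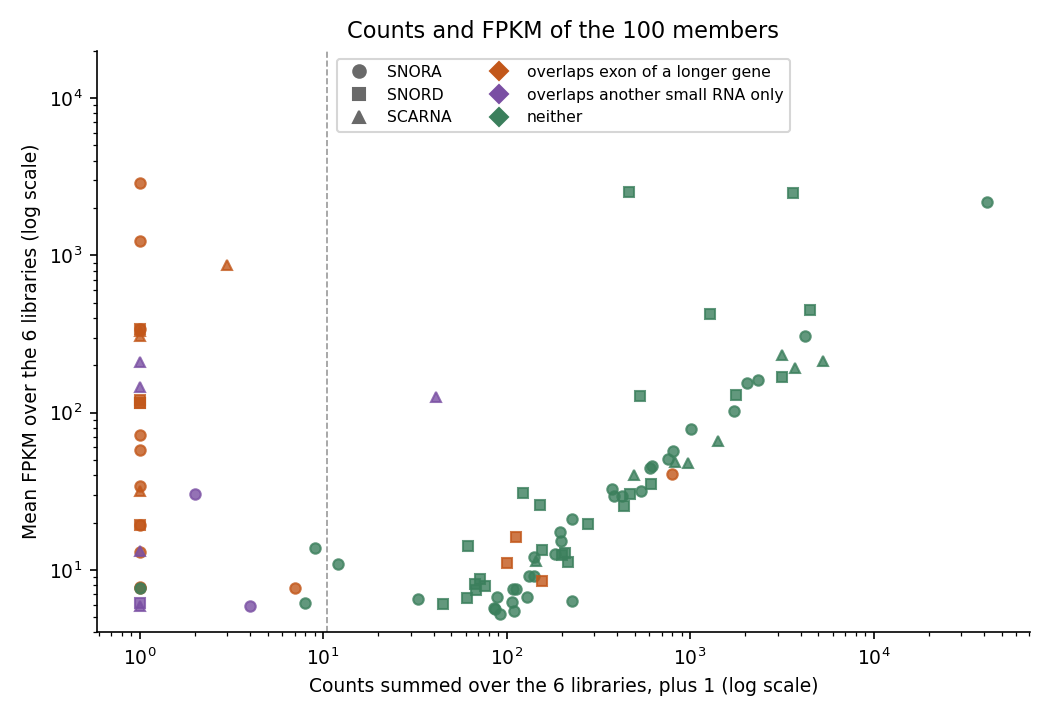
Mean FPKM over the 6 libraries (y axis, log scale) against counts summed over the 6 libraries plus 1 (x axis, log scale) for the 100 RNAs. Marker shape gives the class, colour the annotation overlap on the same strand, and the dashed line separates RNAs with fewer than 10 counts from the rest. Most orange points lie left of the line. They overlap an exon of a gene not typed as a small RNA, which the legend calls a longer gene.

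As a share of all signal, the 100 RNAs took 1.33%, 1.11% and 1.28% of summed FPKM in the SUPV3L1 knockdown libraries and 1.07%, 0.698% and 0.763% in the PNPT1 knockdown libraries. The means were 1.24% ± 0.118 with SUPV3L1 knockdown, against 0.843% ± 0.197 with PNPT1 knockdown (SD, n = 3 each), and the groups did not overlap. On this scale most genes were higher in SUPV3L1 knockdown, with a median log2 fold change of 0.60 over all genes and 11% of genes below 0. H/ACA RNAs made most of the difference, at 0.594% ± 0.156 with SUPV3L1 knockdown, against 0.339% ± 0.0485 with PNPT1 knockdown (SD, n = 3 each), and their groups did not overlap. U17 alone took 0.189%, 0.403% and 0.586% of summed FPKM in the SUPV3L1 knockdown libraries and 0.180%, 0.144% and 0.220% in the PNPT1 knockdown libraries, with overlap. The other 48 H/ACA RNAs took 0.270%, 0.155% and 0.179% with SUPV3L1 knockdown, against 0.200%, 0.142% and 0.132% with PNPT1 knockdown, also with overlap. Their means were 0.202% ± 0.0609 and 0.158% ± 0.0370 in SUPV3L1 and PNPT1 knockdown (SD, n = 3 each). Neither part of the H/ACA class separated the groups alone, and the overall share included U17. C/D RNAs took 0.470% ± 0.177 with SUPV3L1 knockdown, against 0.356% ± 0.130 in PNPT1 knockdown, and scaRNAs 0.175% ± 0.0251 with SUPV3L1 knockdown, against 0.148% ± 0.0334 with PNPT1 knockdown (SD, n = 3 each), both with overlap. The C/D difference was 0.0136 percentage points without SUPV3L1 knockdown replicate 1, 0.189 when the first PNPT1 knockdown replicate was left out and 0.0694 when the second was, beside 0.115 with all libraries. The scaRNA difference was 0.0108 without PNPT1 knockdown replicate 3, 0.0145 without SUPV3L1 knockdown replicate 1 and 0.0442 without PNPT1 knockdown replicate 1, beside 0.0273. The H/ACA difference was 0.169 without SUPV3L1 knockdown replicate 3, its lowest, beside 0.255. With mitochondrial genes left out of the total, the 100 RNAs took 1.51% ± 0.167 with SUPV3L1 knockdown, against 0.914% ± 0.226 with PNPT1 knockdown (SD, n = 3 each). These are sums over RNAs chosen for their level and were given no test.

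The share of counts overlapped between the groups. It was 0.180% ± 0.0316 with SUPV3L1 knockdown, against 0.186% ± 0.107 with PNPT1 knockdown (SD, n = 3 each) for the 100 RNAs, and PNPT1 knockdown replicate 3 had the highest, 0.308%. The other libraries were at 0.153%, 0.172% and 0.215% with SUPV3L1 knockdown, against 0.140% and 0.109% with PNPT1 knockdown, so without that library SUPV3L1 knockdown was higher with no overlap, as in the share of FPKM. Even so, U17 alone overlapped (0.0451%, 0.100% and 0.134%, against 0.0457% and 0.0410%). The other 48 H/ACA RNAs did too (0.0366%, 0.0210% and 0.0311%, against 0.0309% and 0.0212%), as did the C/D and the scaRNA shares. The H/ACA class as a whole did not overlap (0.0816%, 0.121% and 0.165%, against 0.0766% and 0.0622%). The separation was thus one of sums that include U17. Summed FPKM without scaling to a share was also alike, 18800 ± 1105 with SUPV3L1 knockdown, against 18194 ± 4648 with PNPT1 knockdown (SD, n = 3 each). The share divides by a summed FPKM that was 1470700 to 1585100 with SUPV3L1 knockdown, against 1738250 to 2966720 in PNPT1 knockdown. In bulk RNA, fewer cells that hold an RNA and less of it per cell cannot be told apart.

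**Figure D3:**
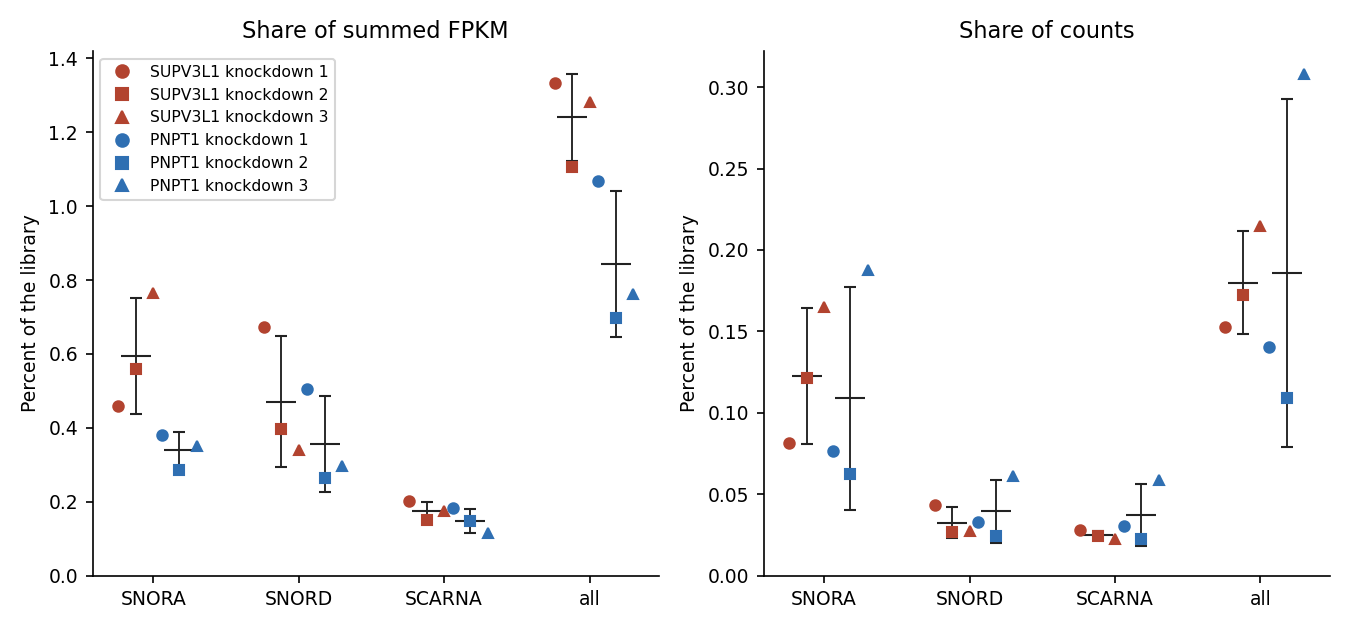
Share of summed FPKM (left) and of counts (right), in percent of each library, taken by each class and by all 100 RNAs. Points are libraries in the colours of the legend, and the dash and bar are the mean and SD of 3 libraries. In the left panel the H/ACA and overall shares of SUPV3L1 knockdown lie above those of PNPT1 knockdown, and in the right panel all classes overlap with all 6 libraries.

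Tested gene by gene, none of the 100 differed between the knockdowns after adjustment. The edgeR quasi-likelihood test of counts, adjusted by Benjamini-Hochberg over 13275 genes, called 0% of genes and 0 of the 64 RNAs that passed its filter on low counts. At an unadjusted p under 0.05 it named 543 genes, 4.09%, and 6 of the 64, all 6 lower in SUPV3L1 knockdown, beside 2.39% of genes lower and 1.7% higher. DESeq2 called 18 genes and none of the 100, but it returned no adjusted p for SNORA23, SNORD15B and the ATP6V0E1 copy of SNORA74. Without a filter on low counts edgeR called 187 of 28015 genes, among them 5 of the 76 RNAs then tested, each highest in PNPT1 knockdown replicate 3. These 5 had 375 to 1788 counts in all and had also passed the filter, where none was called. Limma on log2(FPKM + 0.1), over 11625 genes, called 0% of genes and 0 of 99 RNAs, and at an unadjusted p under 0.05 it named 309 genes, 2.66%, and 5 of the 99, 4 of them lower in SUPV3L1 knockdown, beside 1.56% of genes lower and 1.1% higher. RNAs that passed only through the group where they are high had to differ, so these counts are descriptions.

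Most fold changes lay below 0, lower in SUPV3L1 knockdown, and this was not so on either scale without PNPT1 knockdown replicate 3. In counts, 55 of 64 had a log2 fold change below 0, where 49.3% of all genes did. The medians were -0.83 for H/ACA, -0.34 for C/D and -0.75 for scaRNAs, beside 0.01 for all genes. Without PNPT1 knockdown replicate 3, 20 of 64 lay below 0 (49.1% of all genes) and the medians were 0.18, 0.43 and 0.003 for the 3 classes in that order. In FPKM, 69 of 99 lay below 0 (40.6% of all genes), with medians of -0.36 for H/ACA, -0.09 for C/D and -0.22 for scaRNAs, beside 0.11 for all genes. Without the same library, 47 of 99 lay below 0 (66.8% of all genes), with medians of 0.03, 0.08 and -0.19. With counts scaled by library totals alone, 47 of 64 lay below 0 (44.3% of all genes). After scaling every library to the same summed FPKM, 29 of 99 lay below 0 (11% of all genes), the class medians turned to 0.14, 0.40 and 0.27, and the median of all genes moved to 0.60.

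**Figure D4:**
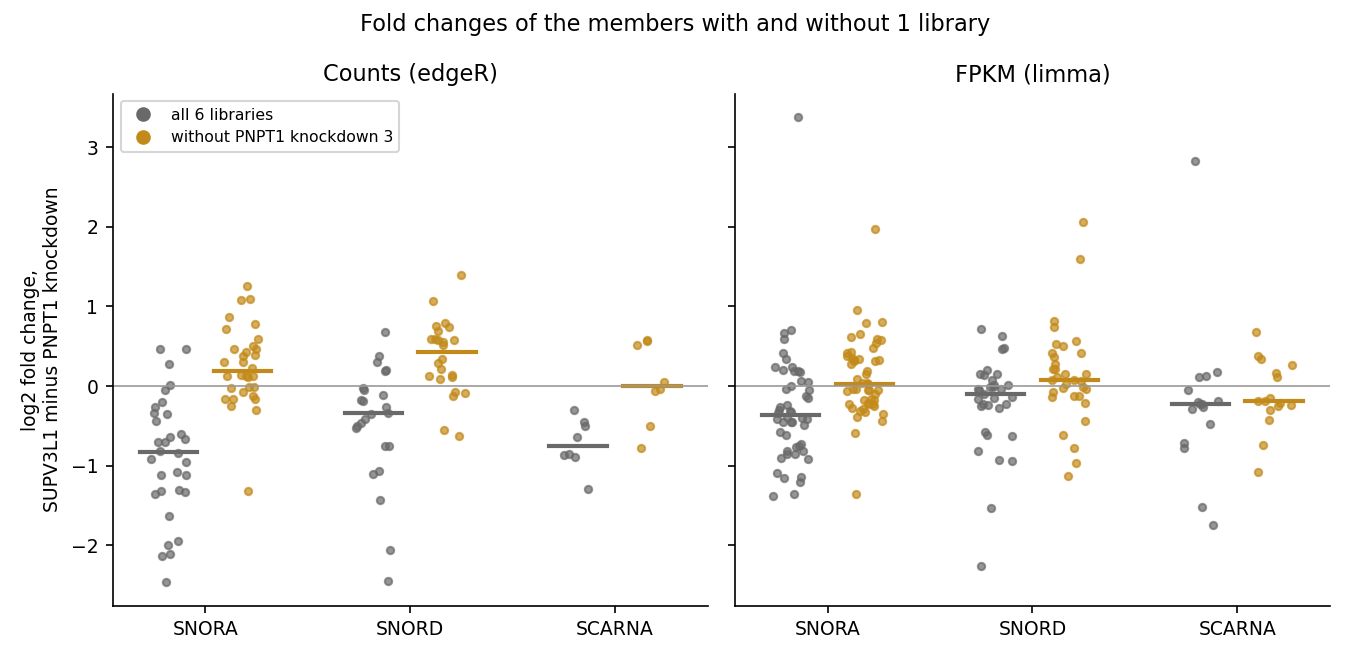
Log2 fold change, SUPV3L1 minus PNPT1 knockdown, of each RNA by class in counts (left) and FPKM (right). Grey points use all 6 libraries, ochre points leave out PNPT1 knockdown replicate 3, and bars are class medians. Leaving out that library moves the H/ACA median in counts to 0.18, against -0.83 with all libraries.

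PNPT1 knockdown replicate 3 was the highest library for most of the RNAs. It held the highest CPM of the 6 libraries for 57 of the 64 RNAs, where it did so for 30.6% of all genes, and the highest FPKM for 61 of the 99, where it did so for 12.3%. Its CPM over the median of the other 5 libraries had a median of 4.08 for H/ACA, 2.43 for C/D and 3.61 for scaRNAs, beside 0.913 for all genes. As a share of summed FPKM it was highest for 25 of the 99 (2.8% of all genes) and SUPV3L1 knockdown replicate 1 for 50 (26.8% of all genes). SNORD15B, from an intron of RPS3, was at 76.9, 52.1 and 72.2 FPKM in the SUPV3L1 knockdown libraries and at 77.4, 59.1 and 443 FPKM in the PNPT1 knockdown libraries. SNORA23, from an intron of IPO7, was at 50.4, 16.4 and 29.9 FPKM in the SUPV3L1 knockdown libraries and at 47.3, 29.2 and 298 FPKM in the PNPT1 knockdown libraries. For both, the other 2 PNPT1 knockdown libraries lay within or at the edge of the SUPV3L1 knockdown range.

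Their fold changes in counts were near 0 without that library, as were those of 5 other RNAs among the 3 with the smallest p-values of each class. The exceptions, the NUCKS1 copy of SNORA72 and SNORD116-18, are described with their own values. SNORD15B had a log2 fold change of -2.06 ± 0.85, and of 0.13 without that library. SNORA23 had -2.46 ± 0.95, and -0.08 without it. The ATP6V0E1 copy of SNORA74 had -2.13 ± 0.82, and -0.16 without it, and SCARNA7 had -1.30 ± 0.62, and 0.05 without it (SE, n = 3 per group). For SNORD116-19 the values were -1.43 ± 0.70 and -0.13, for SCARNA21 -0.86 ± 0.47 and -0.07, and for SCARNA13 -0.51 ± 0.37 and -0.04. All had adjusted p = 0.898 in edgeR with all libraries.

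In the other direction, SNORA21, within RPL23, was at 26.1, 4.15 and 5.36 FPKM in the SUPV3L1 knockdown libraries and at 0.368, 9.85 and 0.0155 FPKM in the PNPT1 knockdown libraries. Overlapping groups went with a difference of 3.38 ± 1.39 on the log2 scale (SE, n = 3 per group), 1.97 without PNPT1 knockdown replicate 3 and 5.19 without replicate 2 of the same group, and an adjusted p of 0.969 in limma. SNORD59A, from an intron of ATP5F1B, was instead lower on average in SUPV3L1 knockdown. It was at 6.36, 1.41 and 1.99 FPKM in the SUPV3L1 knockdown libraries and at 7.05, 4.90 and 62.8 FPKM in the PNPT1 knockdown libraries, again with overlap and the same adjusted p in limma. Its log2 fold change in FPKM was -2.26 ± 0.90 (SE), and -1.13 without PNPT1 knockdown replicate 3. SNORD104, from SNHG25, was at 28.6, 37.0 and 28.7 FPKM in the SUPV3L1 knockdown libraries and at 11.4, 27.2 and 21.8 FPKM in the PNPT1 knockdown libraries, higher without overlap (log2 fold change 0.72 ± 0.38, SE). SCARNA22, from NSD2, was at 11.2, 7.76 and 5.84 FPKM in the SUPV3L1 knockdown libraries and at 18.8, 15.4 and 8.98 FPKM in the PNPT1 knockdown libraries, and overlapped. It was lower in SUPV3L1 knockdown on average (log2 fold change -0.78 ± 0.39, SE, and -1.08 without PNPT1 knockdown replicate 3). SNORA28, from EIF5, was also lower, averaging 6.57 ± 1.85 FPKM with SUPV3L1 knockdown, against 11.7 ± 3.75 FPKM with PNPT1 knockdown (SD, n = 3 each). Its log2 fold change in FPKM was -0.82 ± 0.38 (SE), and -0.59 without PNPT1 knockdown replicate 3. In limma SNORD104, SCARNA22 and SNORA28 each had an adjusted p of 0.969 with all libraries.

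Few RNAs separated the groups in every library. In counts, 3 of 64 were lower in all SUPV3L1 knockdown libraries than in any PNPT1 knockdown library (3.94% of genes) and 0 were higher (4.62% of genes). In FPKM 4 of 99 were lower (4.18% of genes) and 1 was higher (2.61% of genes). The 3 separated on both scales were SNORD116-18, SNORD116-14 and the NUCKS1 copy of SNORA72, and FPKM added SNORA28 as lower and SNORD104 as higher. The RNAs' shares in the lower direction were close to those of all genes. Without PNPT1 knockdown replicate 3, 4 were lower (7.59% of genes) and 10 higher (7.5% of genes) in counts, and 7 were lower (15.1% of genes) and 5 higher (3.15% of genes) in FPKM.

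The SNORA72 copy in NUCKS1 differed by a similar size whichever library was left out. It was at 3.12, 2.23 and 3.65 FPKM in the SUPV3L1 knockdown libraries and at 10.0, 5.84 and 8.004 FPKM in the PNPT1 knockdown libraries, and it rested on 13, 9 and 12 counts against 36, 20 and 19. Its log2 fold change was -1.63 ± 0.62 in counts and -1.37 ± 0.36 in FPKM (SE, n = 3 per group). With any 1 library left out it stayed between -1.965 and -1.31 in counts and between -1.58 and -1.18 in FPKM. It had the smallest unadjusted p of the 99 RNAs in limma, 0.00395, and an adjusted p of 0.969 over all genes in limma. The other SNORA72 member, in RPL30, was 87.9% identical in sequence and was highest in PNPT1 knockdown replicate 3, at 26.3 FPKM.

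SNORD116 is a cluster of near-repeated C/D snoRNAs on chromosome 15 in introns of SNHG14. The cluster is imprinted and its loss is linked to Prader-Willi syndrome, and its members have no established modification target. All 30 identifiers of the cluster had FPKM, and 6 were among the 100, more than from any other host gene. SNORD116-18 was at 27.1, 26.4 and 22.2 FPKM in the SUPV3L1 knockdown libraries and at 40.03, 37.2 and 58.6 FPKM in the PNPT1 knockdown libraries, a log2 fold change of -0.82 ± 0.31 in FPKM and -1.10 ± 0.44 in counts (SE, n = 3 per group). SNORD116-14 was at 13.2, 6.70 and 6.63 FPKM in the SUPV3L1 knockdown libraries and at 14.1, 14.7 and 19.8 FPKM in the PNPT1 knockdown libraries. Neither passed adjustment (adjusted p = 0.898 in edgeR and 0.969 in limma for both), and without PNPT1 knockdown replicate 3 the log2 fold change in counts of SNORD116-18 was -0.56.

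Summed over the 6, SNORD116 was at 101, 91.9 and 83.3 FPKM in the SUPV3L1 knockdown libraries and at 127, 109 and 173 FPKM in the PNPT1 knockdown libraries. The groups did not overlap in FPKM, but with each library scaled to a summed FPKM of 1000000 the sums were 68.6, 58.0 and 55.4 in the SUPV3L1 knockdown libraries and 73.3, 56.7 and 58.4 in the PNPT1 knockdown libraries, which overlap. On that scale SNORD116-18 still did not overlap, at 18.4, 16.6 and 14.7 in the SUPV3L1 knockdown libraries and 23.0, 19.4 and 19.8 in the PNPT1 knockdown libraries, and neither did the NUCKS1 copy of SNORA72. By that measure 2 of the 99 RNAs were lower without overlap (0.413% of genes) and 6 were higher (12.2% of genes). The host SNHG14 was at 2.23, 2.29 and 3.03 FPKM in the SUPV3L1 knockdown libraries and at 2.62, 3.28 and 0.414 FPKM in the PNPT1 knockdown libraries. In unscaled FPKM the SNORD116 sum was thus at its highest and the host at its lowest in PNPT1 knockdown replicate 3. After the scaling, the sum of that library, 58.4, was below the 73.3 of PNPT1 knockdown replicate 1. Unscaled FPKM of that library over the median of the others had a median of 0.60 over all genes tested. The 6 sequences were 68.8% to 98.9% identical in pairs, so reads may be divided unevenly among copies.

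**Figure D5:**
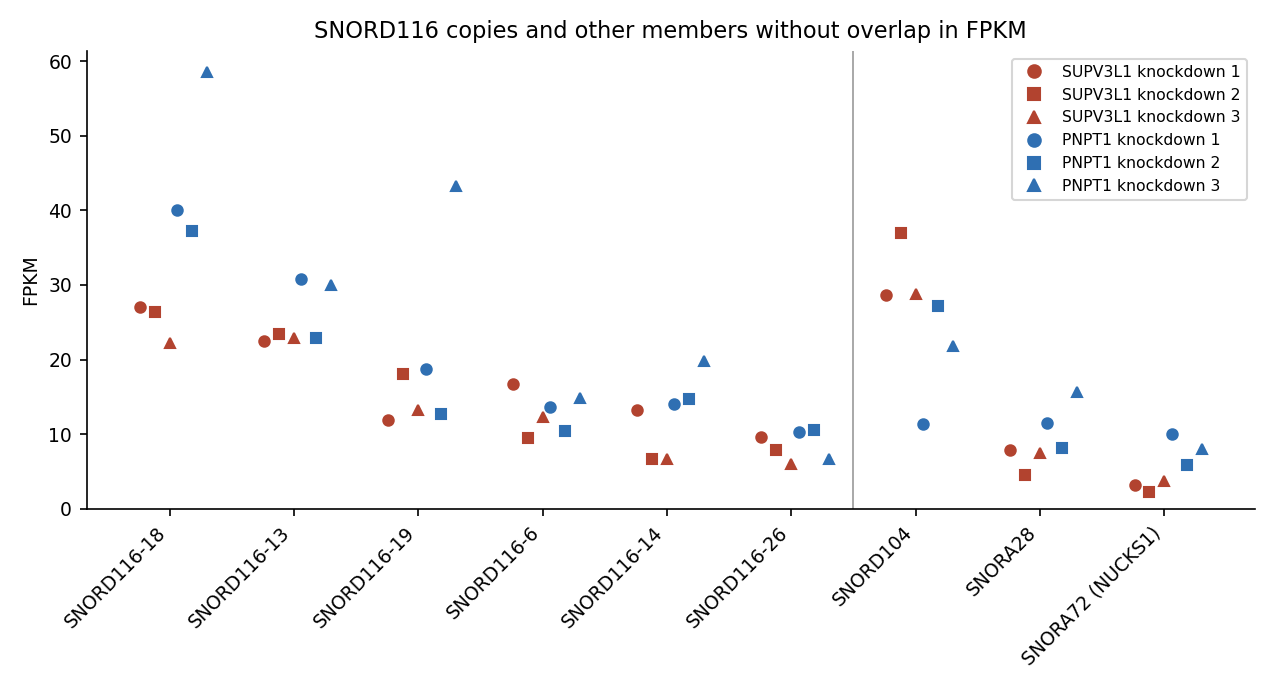
FPKM (y axis) of the 6 SNORD116 copies and, right of the grey line, of SNORD104, SNORA28 and the NUCKS1 copy of SNORA72, in each library. Red points are SUPV3L1 knockdown, blue points PNPT1 knockdown, and marker shapes are replicates. SNORD116-18 at 22.2 to 27.1 FPKM in SUPV3L1 knockdown lies below its 37.2 to 58.6 FPKM in PNPT1 knockdown.

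Another 2 host genes held 3 or more of the RNAs. SNHG17 holds SNORA71A to SNORA71D, whose log2 fold changes in counts were -0.67, 0.02, -0.26 and -0.05 from A to D, while SNHG17 itself had 0.26. Without PNPT1 knockdown replicate 3 those of the RNAs were 0.50, 0.46, 0.42 and 0.72. RPS12, a ribosomal protein gene, holds SNORD100, SNORD101 and SNORA33, with log2 fold changes in counts of -0.03, -0.51 and -0.34, while RPS12 itself had -0.71. Without the same library those of the RNAs were 0.76, 0.57 and 1.09. RPS12 was at 647, 639 and 455 CPM with SUPV3L1 knockdown, against 658, 477 and 1706 CPM with PNPT1 knockdown. None of these fold changes passed edgeR's adjusted test. By position, 93 of the 100 lay inside another gene on the same strand, 68 of them in a protein-coding one, and 7 had no such host, among them 4 of the U3 identifiers and SNORD13. The 93 include SNORD118, within TMEM107, and SCARNA2 (ENSG00000278249), within its own other identifier, so position alone does not give the source of an RNA.

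The classes differed in median length and in box motifs, while their predicted structures overlapped widely. The median length was 134 bases for H/ACA, 104 for C/D and 265 for scaRNAs. The minimum free energy predicted by RNAfold, per base, had medians of -0.339 for H/ACA, -0.266 for C/D and -0.371 kcal/mol for scaRNAs. Its ranges overlapped, at -0.512 to -0.192, -0.417 to -0.161 and -0.469 to -0.237 in the same order. The share of bases paired in the predicted fold had medians of 60.7%, 61.8% and 63.3%. The longest uninterrupted helix in the predicted fold had medians of 8.5, 8 and 10 base pairs for the same classes and was at most 14 in any of the 100. A box C of TGATGA was found in 28 of 33 C/D RNAs, 11 of 17 scaRNAs and 1 of 50 H/ACA RNAs on the transcribed strand, and a box D of CTGA within the last 12 bases in 29, 8 and 2. ACA stood within the last 8 bases of 45 of 50 H/ACA RNAs, 9 of 17 scaRNAs and 3 of 33 C/D RNAs. Within classes, mean FPKM ranked with length at Spearman's rho 0.70 across 33 C/D RNAs, 0.66 across 17 scaRNAs and 0.30 across 50 H/ACA RNAs. These are descriptions across RNAs that share libraries and families.

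The RNAs also differed in how steady they were. The highest of the 6 FPKM values over the lowest had a median of 4.61 for H/ACA, 2.98 for C/D and 3.76 for scaRNAs. Without PNPT1 knockdown replicate 3 the medians were 2.54, 2.22 and 1.68, and 11 of 17 scaRNAs then stayed within a factor of 2.

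Proteins that build or process these particles were read from the same tests. Of 33 genes of the list, 33 were tested and 0 passed adjustment in edgeR or limma, where 0% of all genes did. In counts 19 had a log2 fold change above 0 and 14 below, with a median of 0.07 beside 0.01 for all genes. In FPKM 25 lay above and 8 below, with a median of 0.30 beside 0.11. NOLC1, a chaperone that shuttles snoRNPs between nucleolus and Cajal body, averaged 129 ± 48.1 CPM with SUPV3L1 knockdown, against 60.7 ± 52.8 CPM with PNPT1 knockdown (SD, n = 3 each), with overlap. ZNHIT6, an assembly factor of box C/D particles, averaged 38.1 ± 8.97 CPM with SUPV3L1 knockdown, against 21.4 ± 9.51 CPM with PNPT1 knockdown (SD, n = 3 each), with overlap. For TAF9 the CPM values were 12.7, 17.7 and 14.6 with SUPV3L1 knockdown, against 16.1, 15.9 and 54.3 with PNPT1 knockdown, the last of them far above the rest. RRP9, a protein of the U3 particle, averaged 10.5 ± 4.78 CPM with SUPV3L1 knockdown, against 5.16 ± 4.92 CPM in PNPT1 knockdown, and IMP4, another, 33.9 ± 7.24 CPM with SUPV3L1 knockdown, against 23.0 ± 5.17 CPM with PNPT1 knockdown (SD, n = 3 each). FBL, the methyltransferase of the box C/D particle, averaged 77.7 ± 19.1 CPM with SUPV3L1 knockdown, against 101 ± 56.4 CPM with PNPT1 knockdown (SD, n = 3 each).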

How the data were processed

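RNA precipitated with the J2 antibody was measured in 3 SUPV3L1 and 3 PNPT1 knockdown libraries. The deposited counts are whole-number reads per gene for 60675 identifiers; 5 trailing HTSeq summary lines entered neither the library sizes nor any test. The deposited FPKM table covers the same identifiers, and 0 of its columns belong to other samples. StringTie 2.1.4, HTSeq, SAMtools 1.14 and HISAT2 2.2.1 are named with GRCh38 in the submitters' processing notes, and the library kit was directional per the labels' protocols. Not given in the sources here are the HTSeq version and strand setting, the annotation release and the tool behind the FPKM, so reads from a gene on the opposite strand may have been counted. Of all entries, 7.06% to 16.0% were assigned to a gene, 65.7% to 80.1% were alignments that were not unique and 0.615% to 1.47% were ambiguous, neither of which gives counts.

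The test of counts was that of edgeR 4.0.16 under R 4.3.3 (quasi-likelihood, TMM scaling, default filter with a minimum count of 10 and a total of 15). FPKM were tested with limma 3.58.1 on log2(FPKM + 0.1), for genes at 1 FPKM or more in 3 libraries, so folds of low genes are understated. P-values were adjusted by Benjamini-Hochberg over all genes tested, with a threshold of 0.05. DESeq2 1.42.0 was an alternative. Scaling by library totals alone, scaling to a common summed FPKM and the comparison of group ranges without PNPT1 knockdown replicate 3 were added after the data were seen. On simulated data with 200 changed genes, edgeR recovered 151 of the 197 kept, with 10 false calls over 12885 genes, and limma 99 of 196, with 8 false calls over 10857 genes. The planted changes were larger than the class medians found here, and no shift of a single library was planted. The recovery of smaller changes, or beside a library that stands apart, was therefore not measured. Positions, hosts and sequences (the shortest transcript) came from GENCODE 29, which held all 100 identifiers, and folds from RNAfold 2.7.2. Boxes were searched on the transcribed strand only.

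The RNAs and the lists were chosen with earlier results of these data known. Named are the 5 highest RNAs of each class, the 3 with the smallest p per class and test, the RNAs of precursor cleavage, the 5 highest with fewer than 10 counts, those at the rank limit, those of the 3 hosts with most members, both targeted genes and the 3 particle proteins with the smallest p per test. FBL, SNORD10, SNORA52, SNORD104 and others outside this rule were chosen after their values were seen. Replicates are biological per the series' design text, were numbered in accession order and pair nothing. The labels do not explain the numbers in the sample titles, so the libraries of a group may share a hairpin or not, and p-values measure the spread between these samples.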

Additional observations from a re-analysis of the deposited data

How the results depend on the processing

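No paired analysis was possible because the labels give no replicate numbers shared by the groups. The count of genes called by counts was 0 in edgeR, 18 with DESeq2, 187 without a filter on low counts and 0 to 1 with any 1 library left out (1 without SUPV3L1 knockdown replicate 2). Without the filter 5 of the 76 RNAs tested were called (SNORD15B, SNORA74 in ATP6V0E1, SNORA23, SNORA53 and SNORA65), beside 187 of 28015 genes. All 5 were lower in SUPV3L1 knockdown and highest in PNPT1 knockdown replicate 3. On leaving out single libraries, the class medians of log2 fold change ranged from -1.13 to 0.18 (H/ACA), -0.71 to 0.43 (C/D) and -1.01 to 0.0034 (scaRNAs) in counts. In FPKM they ranged from -0.60 to 0.029 (H/ACA), -0.32 to 0.076 (C/D) and -0.45 to -0.033 (scaRNAs). Scaled to a common summed FPKM, an alternative chosen after seeing the data, the scaRNA median was 0.27. The log2 fold change ranged likewise from -2.55 to 0.13 for SNORD15B and from -1.71 to 0.049 for SCARNA7 in counts, and from -0.26 to 4.44 for SCARNA2 (ENSG00000278249) in FPKM, and each turned without PNPT1 knockdown replicate 3. The cause was not tested. The other 326 values kept their direction and side of the threshold or moved by less than the replicate spread. RNAs that the filter on low counts removed were not compared in counts, among them the 30 with under 10 counts, 24 of which had 0, and why these counts are low was not tested.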
